A study of Mus musculus with 4 samples.

Results

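The transcripts of the cytosolic ribosomal proteins were followed in the entire small intestine of wild type (WT) mice and of cystic fibrosis (CF) mice, with and without lubiprostone. The probe sets were chosen by symbol alone, as those annotated to a gene named Rpl or Rps with a number, or to Rplp0, Rplp1, Rplp2 or Rpsa, with the Rps6k kinase genes left out. Of 45101 probe sets on the array, 217 matched. Of these, 107 were annotated to 1 gene and cover 51 genes, and 110 probe sets were listed for several genes, mostly a ribosomal protein gene together with its pseudogenes. A further 31 ribosomal protein symbols were found only in such shared lists, among them Rpl26, the gene to which the study's qRT-PCR was normalized. Rps19bp1, which encodes a binding partner of a ribosomal protein, and the pseudogene Rps15a-ps6 matched the rule without being ribosomal proteins.

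The 4 groups were CF + lubiprostone, CF control, WT + lubiprostone and WT control. CF mice were homozygous for a targeted null allele of Cftr (Cftr tm1UNC), the chloride channel that is defective in cystic fibrosis, and WT mice were their littermates, all on the C57BL/6 background (C57BL/6J in the methods) and all kept on the liquid diet Peptamen. Lubiprostone, a fatty acid drug that activates chloride secretion, was gavaged at 10 µg/kg each day for 2 weeks, and control mice are labelled as having had no treatment. Equal amounts of total RNA were pooled within a group and each pool was hybridized to 1 Affymetrix array. The design text gives 8 mice for CF + lubiprostone, 10 for CF control, 7 for WT + lubiprostone and 10 for WT control, and the methods give a smaller number for the WT control pool. The ages and the sex make-up of the pools are not given in the sources used here. With 1 array per group, the spread between mice or pools is not known, no p-value was computed, and every comparison is between 2 pools.

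Each value is a signal, an intensity in arbitrary units computed over all probes of a set, scaled by the authors so that the mean without the highest and lowest 2% of values is 500.0 on every array. The array medians were 119.6 for CF + lubiprostone, 109 for CF control, 123 for WT + lubiprostone and 124 for WT control. The targeted gene followed the labels: the brighter of 2 Cftr probe sets had signals of 715 in CF + lubiprostone, 620.2 in CF control, 2226 in WT + lubiprostone and 2505 in WT control. Markers of other tissues differed between pools. The summed signal of 4 pancreatic acinar genes was 3667 in CF + lubiprostone and 16213 in CF control, against 1215 in WT + lubiprostone and 15460.2 in WT control. Xist, made by the inactive X chromosome of females, differed too, with 4062 in CF + lubiprostone, 2509.8 in CF control, 3683 in WT + lubiprostone and 1036 in WT control.

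A ribosome is built from a small and a large subunit, each a scaffold of ribosomal RNA with many proteins bound to it. Proteins of the small subunit carry the prefix Rps and those of the large subunit Rpl, and the proteins of a subunit are needed in near-equal amounts. Their transcripts are among the most abundant in any dividing or secreting tissue, and they begin with a short run of pyrimidines (the terminal oligopyrimidine, or TOP, tract) through which the kinase mTORC1 controls their translation. In the intestinal epithelium, ribosome production is a feature of the dividing crypt cells and of protein-secreting cells.

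The starts of the genes were searched for such a pyrimidine run and for 2 other short stretches of letters, none of which most member windows held. RefSeq windows of 300 bases (GRCm38.p6) around the annotated start were found for 44 of the 51 genes, as 52 windows. A C followed by at least 4 further C or T began exactly at the annotated start in 8 of these windows (15.4%), against 2.51% of all 32851 windows, and began within 5 bases of it in 21 windows (40.4%), against 18.3% of all. The letters CCGGAAG, the core bound by ETS-type factors, stood on either strand of 21 member windows (40.4%) and 8.86% of all. The letters TCTCGCGA stood on either strand of 10 member windows (19.2%) and 0.995% of all. The pyrimidine run can overlap CCGGAAG, since CTTCC opens the reverse complement of those letters. A match says only that the letters are present. The 45 bases before the start and the first 15 bases from it are given for 6 genes with the run at their start, and for the paralogs Rpl22l1 and Rps27l, whose signals set them apart and which have no run at the annotated start itself, though in both windows one begins within 5 bases of it. They lie at chr2:39005117-39005176 (Rpl35, minus strand), chr4:86857353-86857412 (Rps6, minus), chr11:114668535-114668594 (Rpl38, plus), chr17:27635230-27635289 (Rps10, minus), chr17:33955651-33955710 (Rps18, minus), chr7:141447606-141447665 (Rplp2, plus), chr3:28805463-28805522 (Rpl22l1, plus) and chr9:66946041-66946100 (Rps27l, plus). Capitals mark the pyrimidine run from the annotated start and, before it, CCGGAAG.
Rpl35: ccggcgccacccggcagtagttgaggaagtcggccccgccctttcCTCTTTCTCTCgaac
Rps6: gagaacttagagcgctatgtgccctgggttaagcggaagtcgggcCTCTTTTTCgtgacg
Rpl38: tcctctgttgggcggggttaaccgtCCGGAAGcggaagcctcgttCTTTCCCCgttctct
Rps10: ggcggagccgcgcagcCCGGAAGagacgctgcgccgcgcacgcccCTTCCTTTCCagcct
Rps18: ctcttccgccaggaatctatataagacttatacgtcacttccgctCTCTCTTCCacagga
Rplp2: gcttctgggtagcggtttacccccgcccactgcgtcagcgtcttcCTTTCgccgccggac
Rpl22l1: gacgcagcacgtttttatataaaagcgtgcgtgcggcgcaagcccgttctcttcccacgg
Rps27l: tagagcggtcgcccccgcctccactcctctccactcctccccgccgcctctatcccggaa

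Ribosomal protein transcripts were among the brightest on every array. Of the 903 probe sets in the highest 2% by mean signal, 143 were ribosomal protein probe sets: 66 of 36 genes with a probe set of their own, and 77 shared with pseudogenes or other genes. On the single arrays, 142 to 145 of the 902 probe sets above the 98th percentile were ribosomal. The 217 probe sets made up 9.33% of the summed signal of the CF + lubiprostone array, 9.09% of CF control, 8.48% of WT + lubiprostone and 7.75% of WT control. The share was thus highest in the 2 CF pools and lowest in WT control. The scaling leaves out the highest 2% of values, so most of this signal had no part in setting the scale.

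Rps29, a small zinc-binding protein of the small subunit, was the brightest member. Its brightest probe set had signals of 46119 in CF + lubiprostone, 47239 in CF control, 44674 in WT + lubiprostone and 39588 in WT control. The 2 CF pools were close to each other and WT control was the lowest, a pattern that recurred in most members. The brightest probe set of Rplp0, the scaffold of the stalk on the large subunit where elongation factors dock, had signals of 32270.1 in CF + lubiprostone, 32451 in CF control, 28564 in WT + lubiprostone and 24693 in WT control. Rpl38, a large subunit protein, had 35557 in CF + lubiprostone, 36224 in CF control, 32488 in WT + lubiprostone and 27552 in WT control. Rps18, a protein of the head of the small subunit, had 28843, 27483, 25223 and 20852 in the same order. In all 3 genes the WT + lubiprostone pool lay between WT control and the CF pools.

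**Figure D1:**
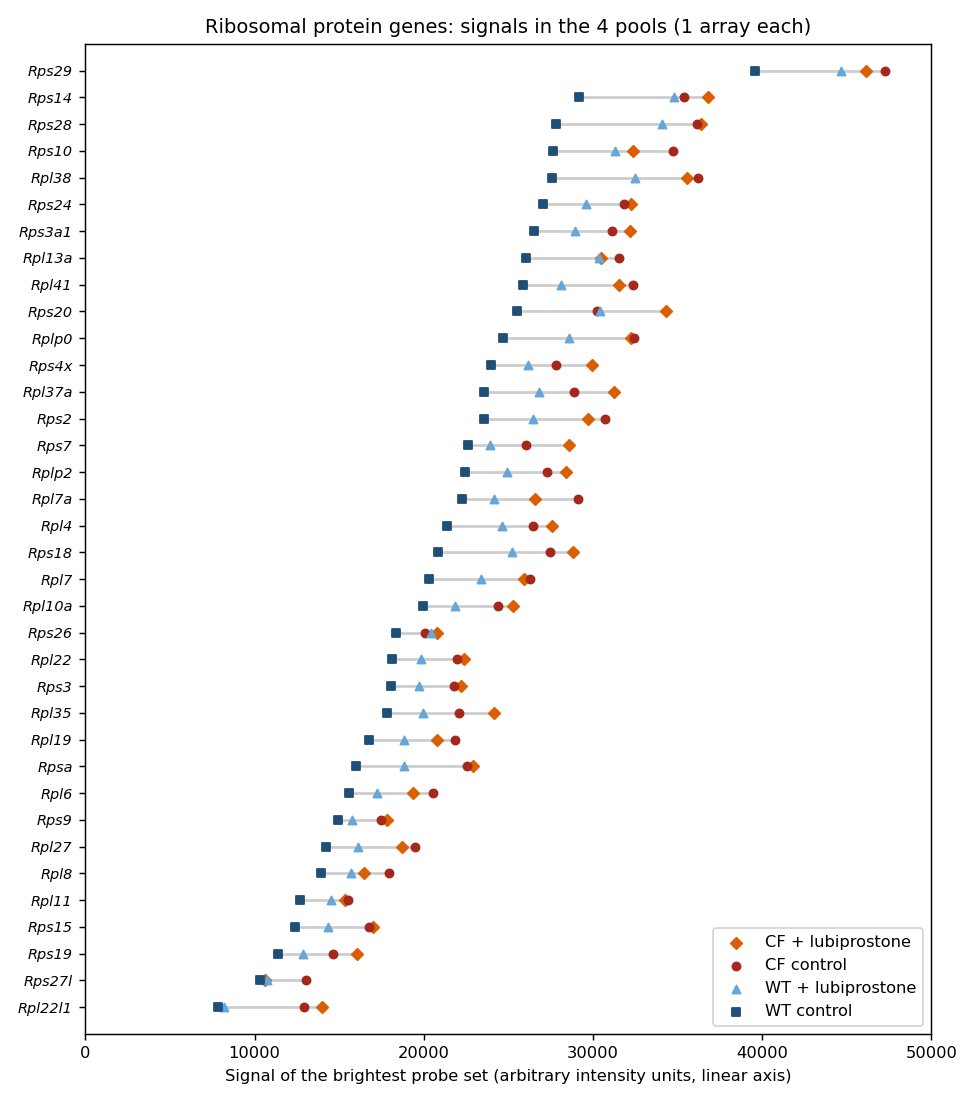
Signal (intensity in arbitrary units, linear axis) of the brightest probe set of each of the 36 ribosomal protein genes with a probe set in the highest 2%, ordered by the WT control signal; the 4 markers of a row are the 4 pools, 1 array each, and the grey line is their range. WT control is the lowest pool in all 36 rows, and WT + lubiprostone lies between it and both CF pools in 33.

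Of these 36 genes, WT control had the lowest signal in 36, and the highest signal was in CF + lubiprostone in 21 and in CF control in 15. Over all 143 bright ribosomal protein probe sets, WT control was the lowest pool in 138 (96.5%), against 371 of the 760 other probe sets as bright (48.8%). WT + lubiprostone lay between WT control and CF control in 130 of the 143 (90.9%) and in 46.3% of the others, without regard to CF + lubiprostone. These counts all rest on the single WT control array, which is shared by the CF control over WT control and the WT + lubiprostone over WT control comparisons.

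Compared with WT control, CF control had somewhat higher ribosomal protein signals in both subunits. The filter kept genes with a probe set at or above the array median on at least 1 array, which 47 of the 51 passed; Rps16, Rpl3l, Rpl39l and Rps15a-ps6 did not. Of these 47, 41 were higher in CF control, where 48.2% of all 11806 genes counted were higher, and 6 were lower, where 51.8% of all genes were. The median log2 ratio was 0.29 (a ratio of 1.22), with quartiles of 0.18 and 0.38, and the median over all genes was -0.02. The 24 genes with the large subunit prefix Rpl had a median of 0.32. The 23 with the small subunit prefix Rps, Rps19bp1 among them, had 0.28. The shift was small for single genes: 1 of 47 was at least 1.5-fold higher (7.95% of all genes) and 0 were at least 1.5-fold lower (11.8% of all genes), and none passed 3-fold, the threshold of the study, in either direction (1.16% and 1.82% of all genes). With equal array medians the median over the 47 genes was 0.47, where that over all genes was 0.16. With quantile normalization these medians were 0.15 and 0.04. A plain probe set is one whose ID marks no probe as shared. Over the 21 genes with one, the median was 0.058 with 14 higher, the share of all genes not being computed. Of the 24 plain probe sets behind this last value, 6 were bright, and 5 of these 6 were higher in CF control, with log2 ratios of -0.05 to 0.49. In the whole intestine, more cells rich in a transcript and more of it per cell cannot be told apart.

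The evenness of the bright probe sets was the more marked feature. In CF control over WT control, 142 of the 143 were higher, with quartiles of 0.24 and 0.37 around a median of 0.29, while 529 of the 760 other bright probe sets were higher, with quartiles of -0.07 and 0.31 around 0.15. The exception was 1 of 3 probe sets of Rpl22, a large subunit protein, at -0.05. Among bright and moderately bright probe sets, the median ratio did not climb steadily with the signal: it was 0.19 for 13 matching probe sets with a mean signal of 5000 to 10000, 0.34 for 47 between 10000 and 20000, 0.28 for 72 between 20000 and 30000, and 0.30 for 17 above. Among other probe sets of the same 4 ranges the medians were 0.12, 0.16, 0.19 and 0.11. The 51 matching probe sets that passed the filter but were not bright had a smaller median of 0.11, with 34 higher.

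The highest gene ratios of CF control over WT control, among members that were bright enough and whose probe sets went 1 way, were those of Rpl22l1, Rpsa, Rpl37, Rpl27 and Rpl7. Rpsa, a small subunit protein that is also known as the laminin receptor precursor, had signals of 22913 in CF + lubiprostone and 22581 in CF control, against 18832 in WT + lubiprostone and 16024 in WT control. Its log2 ratio of CF control over WT control was 0.49. Rpl7, Rpl27 and Rpl37, of the large subunit, had log2 ratios of 0.44, 0.45 and 0.45. The 3 probe sets of Rpl7 had log2 ratios of 0.37, 0.40 and 0.55, and the brightest had signals of 25913 in CF + lubiprostone, 26279.7 in CF control, 23361 in WT + lubiprostone and 20318 in WT control. The lowest ratios among members of the same kind belonged to dimmer ones: Rps25 at -0.07, Rpl39 at -0.06, Rpl27a at -0.02, Rps19bp1 at 0.03 and Rps4l at 0.06. For Rps25 the shared probe set, listed also for 2 predicted genes, was far brighter and had a log2 ratio of 0.48, so the low value belongs to the dim probe set. The own probe sets of Rpl27a, Rpl39 and Rpl37 were not bright either. Their bright shared probe sets had 0.26 for Rpl27a, 0.07 for Rpl39, and 0.28 and 0.34 for Rpl37.

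WT + lubiprostone over WT control gave a shift of the same sign and smaller size. Of the 47 genes, 44 were higher, against 49.5% of all 11691 genes counted, and 3 were lower, against 50.5% of all. The median log2 ratio was 0.16, beside 0.00 over all genes. Only members bright enough (a mean signal no lower than the 75th percentile) with no probe sets of opposite sign were ranked, and the highest were Rpl37 at 0.32, Rpl37a at 0.32, Rps18 at 0.28, Rpl38 at 0.24 and Rpsa at 0.23. The lowest were Rps4l at -0.28, Rpl22l1 at 0.06, Rps19bp1 at 0.07, and Rps15 and Rps6 at 0.11 each. Outside these limits, Rps27 was at 1.54, Rpl14 at -0.48 and Rpl7l1 at -0.14. The value of Rpl37 came from a probe set that was not bright, and its bright shared ones had 0.21 and 0.20. The 3 probe sets of Rpl37a ranged from 0.19, for the brightest, to 0.54. Rps6, the small subunit protein that the S6 kinases phosphorylate, was measured by a dim probe set, with signals of 1069.8 in CF + lubiprostone, 1064 in CF control, 861 in WT + lubiprostone and 799 in WT control. Of 47 genes, 1 was at least 1.5-fold higher (Rps27, on a dim probe set; 4.46% of all genes), none was at least 1.5-fold lower (5.07% of all), and none passed 3-fold (0.488% higher and 0.573% lower of all genes).

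In CF + lubiprostone over CF control the 47 genes showed no common shift on the deposited scale. Of the 143 bright probe sets, 95 were higher, with a median of 0.03, against 344 of the 760 others. With equal array medians these counts were 20 and 189. Of the 47 genes, 27 were higher, against 51.5% of all 11795 genes counted, and 20 (42.6% of the members) were lower, against 48.5% of all. The median log2 ratio was 0.02 on the deposited scale, equal to that over all genes at 0.02, and it was -0.11 with the arrays scaled to the same median, where that of all genes was also -0.11 and 8 of the 47 were higher, against 37.9% of all genes. None of the 47 passed 1.5-fold (9.43% of all genes higher and 6.43% lower) or 3-fold (0.941% and 0.738%). The highest ratios within the same limits were those of Rps20 at 0.51, Rpl27a at 0.40, Rps9 at 0.31, Rpl37 at 0.22 and Rpl35 at 0.15. The values of Rps20 and Rps9 came from dim probe sets: the 2 dim probe sets of Rps20 had log2 ratios of 0.85 and 0.90, while its 2 bright ones had 0.18 and 0.09. Those of Rpl27a and Rpl37 each rested on 1 probe set that was not bright. The bright shared probe set of Rpl27a had -0.007, and those of Rpl37 had -0.03 and -0.003. The lowest were Rps27l at -0.31, Rps4l at -0.30, Rpl13a at -0.19, Rps19bp1 at -0.18 and Rpl7a at -0.13. The 4 probe sets of Rpl13a ranged from -0.49 to -0.03, with the brightest at -0.05, and its bright shared one had -0.01. Among dimmer members, Rps27 was at 0.51, Rpl14 at -0.35 and Rpl12 at -0.25.

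The genotypes could be compared again in the treated pools, on 2 other arrays. In CF + lubiprostone over WT + lubiprostone, 40 of the 47 genes were higher (85.1%, against 50.3% of all 11792 genes counted) and 7 were lower (49.7% of all). The median log2 ratio was 0.15, beside 0.00 over all genes, which is smaller than the 0.29 of the control pools; the difference between these medians was not tested. Of the 143 bright probe sets, 136 were higher, against 381 of the 760 others. Of the 47 genes, 1 was at least 1.5-fold higher (Rpl22l1; 8.22% of all genes) and 1 at least 1.5-fold lower (Rps27; 8.86% of all), and none passed 3-fold (1.27% and 1.25% of all). This comparison uses neither control array. Across the 66 bright probe sets of single genes, the ratios of the 2 genotype comparisons were correlated with a Pearson r of 0.52 and a Spearman rho of 0.32. These describe probe sets that share arrays and probe composition. Rpl22l1 was the highest of the 66 in both comparisons, at 0.72 and 0.78, far from the medians of 0.31 and 0.17. It weighs heavily on the Pearson r, which was not computed without it.

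**Figure D2:**
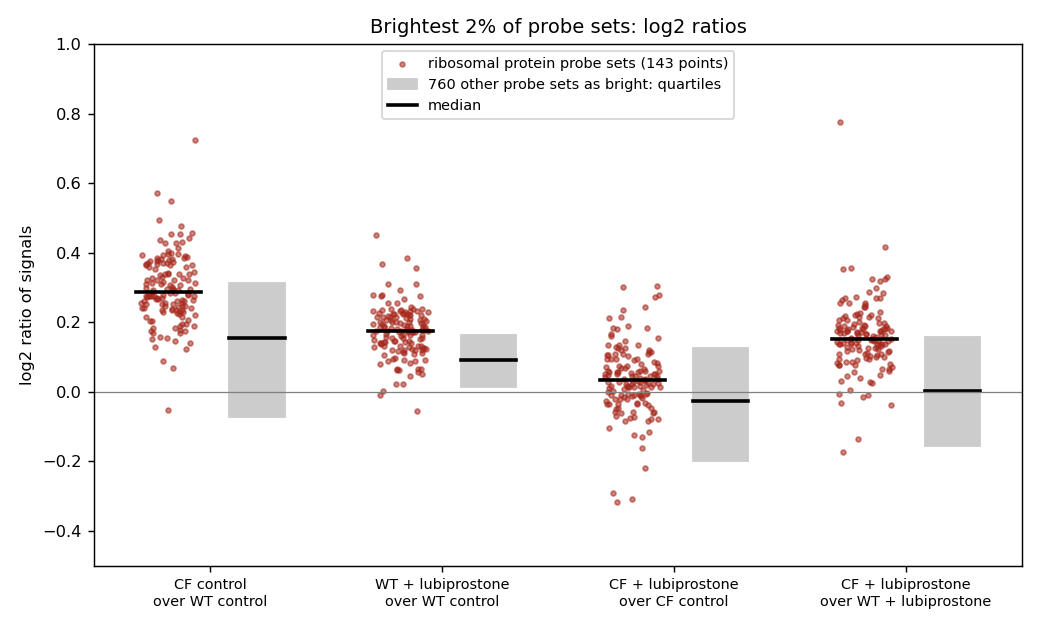
Log2 ratios of signals in the 4 comparisons for the probe sets in the highest 2% by mean signal: each red point is 1 of 143 ribosomal protein probe sets, the grey boxes span the quartiles of the 760 other probe sets as bright, and the black lines are medians. The red medians are 0.29, 0.18, 0.03 and 0.15 from left to right and those of the other probe sets 0.15, 0.09, -0.03 and 0.00; with the arrays scaled to the same median, both values of the CF + lubiprostone over CF control comparison are below 0, at -0.09 and -0.16.

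Rpl22l1 stood apart from the family. It encodes a paralog of Rpl22 that can take its place in the large subunit, and in mouse cells Rpl22 protein is known to repress it. Its only probe set had signals of 13998 in CF + lubiprostone and 12927 in CF control, against 8178 in WT + lubiprostone and 7830.0 in WT control. Both CF pools were above both WT pools, by a ratio of 1.65 between the control pools (log2 0.72) and of 1.71 between the lubiprostone pools (log2 0.78). The log2 ratios of lubiprostone over control were 0.06 in WT and 0.11 in CF. Under the other scalings its genotype log2 ratios were 0.90 and 0.81 with equal medians and 0.65 and 0.77 after quantile normalization. Rpl22 itself had 3 probe sets that did not move together: the brightest had 22375, 21955, 19839 and 18115 in CF + lubiprostone, CF control, WT + lubiprostone and WT control, the next 12859.8, 10638, 12337 and 11024, and the dimmest 953, 923, 972 and 1107. Their log2 ratios of CF control over WT control were 0.28, -0.05 and -0.26.

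Rps27l was high in a single pool. It encodes a paralog of the small subunit protein Rps27 and is known in human cells as a target of p53. Its brightest probe set had signals of 10636 in CF + lubiprostone, 13019.8 in CF control, 10736 in WT + lubiprostone and 10321 in WT control, and its other 2 probe sets showed the same order of CF control above the other 3 pools, which lay close together. Over the 3 probe sets, the log2 ratio was 0.34 in CF control over WT control, 0.02 for lubiprostone over control in WT, -0.31 for lubiprostone over control in CF and 0.02 for CF over WT in the treated pools. The signs of the values 0.34 and -0.31 held under equal medians (0.52 and -0.43) and quantile normalization (0.27 and -0.25).

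**Figure D3:**
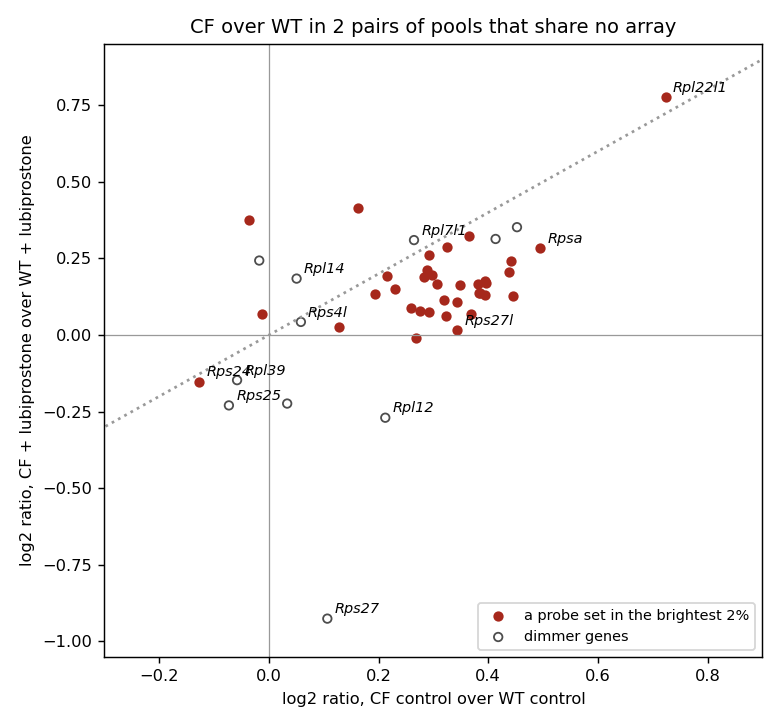
Log2 ratios of the 47 genes in CF control over WT control (horizontal) and in CF + lubiprostone over WT + lubiprostone (vertical), 2 pairs of pools that share no array; filled points are genes with a probe set in the highest 2%, open points dimmer genes, and the dotted line marks equal ratios. Rpl22l1 is at the upper right at 0.72 and 0.78, and Rps27, measured here by a dim probe set, is lowest at -0.93 on the vertical axis.

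Most of the remaining paralogs were dim. Rps4l, the autosomal paralog of the X-linked Rps4x in mice, had signals of 2034 in CF + lubiprostone and 2499 in CF control, against 1974 in WT + lubiprostone and 2399.6 in WT control. Its signals were lower in both lubiprostone pools than in both control pools. Rps4x followed the family and was the higher with lubiprostone in each genotype, with 29942 in CF + lubiprostone, 27803 in CF control, 26177 in WT + lubiprostone and 23961 in WT control. Rpl7l1, a relative of Rpl7, had 3 probe sets, of which the brightest by mean had 1154, 1548, 1002 and 1316 in CF + lubiprostone, CF control, WT + lubiprostone and WT control, also lower with lubiprostone in both genotypes, while the next had 1298, 1400.1, 930.5 and 962. Rpl3l, which replaces Rpl3 in striated muscle, and Rpl39l, which replaces Rpl39 in male germ cells, had signals of at most 51.8 on any array and did not pass the filter. Rpl36al was measured only together with Rpl36a, by bright probe sets with log2 ratios of 0.37 and 0.28 in CF control over WT control.

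Several genes had bright and dim probe sets that differed. For Rps24, a small subunit protein, 4 bright probe sets had log2 ratios of 0.12 to 0.24 in CF control over WT control, and 2 dim ones had -0.70 and -0.83, so that the gene average of -0.13 describes neither. Rps18 had 3 bright probe sets with 0.31 to 0.40 and 3 with signals of at most 62.0 that did not pass the filter. The only kept probe set of Rps27 had signals of 199 in CF + lubiprostone, 139.7 in CF control, 378 in WT + lubiprostone and 129.7 in WT control, all below the 75th percentile of their array, while the bright probe set shared with the retrotransposed copy Rps27rt had 22619.7, 19916, 20630.2 and 17642. The log2 ratio of WT + lubiprostone over WT control was 1.54 on the dim and 0.23 on the bright one. Rps16 was measured alone only by a probe set at 19.0 or below on every array, while 2 probe sets shared with its pseudogenes had signals of 21866 and 26469 in WT control. Among the 18 genes with more than 1 bright probe set, the SD of the log2 ratio between probe sets of a gene had a median of 0.059 in CF control over WT control, which is the spread within these arrays and not between mice.

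Rpl26, the reference of the qRT-PCR, is a large subunit protein, and both of its probe sets are listed also for the pseudogene Gm15772. The brighter had signals of 33407 in CF + lubiprostone and 33255 in CF control, against 30138 in WT + lubiprostone and 25622 in WT control. The other had 29623, 30814, 28091 and 25836 in the same order. Both followed the family, with log2 ratios of 0.38 and 0.25 for CF control over WT control, of 0.23 and 0.12 for treated over untreated WT, of 0.01 and -0.06 for treated over untreated CF, and of 0.15 and 0.08 for CF + lubiprostone over WT + lubiprostone. After quantile normalization, these were 0.17 and 0.06 in CF control over WT control. Other members used as references elsewhere had, in CF control over WT control, log2 ratios of 0.39 (Rplp0), 0.35 (Rps18), 0.28 (Rps29), 0.31 (Rpl4), 0.45 (Rpl27), 0.44 (Rpl13a) and 0.16 (Rps9), and the probe set of Rpl32, shared with Rpl32l, had 0.46. The bright probe sets of Rps13, all shared, had 0.19, 0.15 and 0.27. Probe sets of Rpl27 ranged from 0.17 to 0.71, with 0.45 on the brightest, and those of Rps9 from -0.15 to 0.41, with 0.23 on the brightest. For Rpl13a the brightest probe set had 0.28, and the bright one shared with Gm11478 had 0.09. The flattest bright probe set was that of Rpl39 shared with Gm32211, with 38001 in CF + lubiprostone, 40065 in CF control, 38832 in WT + lubiprostone and 38225 in WT control.

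The stalk proteins behaved like the rest. Rplp2 had signals of 28410.1 in CF + lubiprostone, 27267 in CF control, 24930.0 in WT + lubiprostone and 22416 in WT control. The probe set of Rplp1, shared with the pseudogene Gm13777, had 28535, 27359, 26136 and 22289. Fau, whose product is cleaved to a small subunit protein but whose name the rule does not take, had a narrower range of 19225, 19846, 20108 and 17859.6, with log2 ratios of 0.15, 0.17, -0.05 and -0.06 in CF control over WT control, WT + lubiprostone over WT control, CF + lubiprostone over CF control and CF + lubiprostone over WT + lubiprostone.

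Other genes of translation were read beside the family. The 76 measured mitochondrial ribosomal protein genes (Mrpl and Mrps), which serve the ribosome inside mitochondria, were mostly higher in the CF control pool than in the WT one (65 of 76, median log2 0.19). Unlike the cytosolic set, 67 of 76 were lower in the treated CF pool than in the untreated one, with a median of -0.27, and the median was -0.03 in WT + lubiprostone over WT control. In CF + lubiprostone over WT + lubiprostone, 32 of 76 were higher, with a median of -0.04. Mrpl12 of the mitochondrial large subunit had signals of 3909 in CF + lubiprostone, 5058 in CF control, 3938 in WT + lubiprostone and 3448 in WT control, and Mrpl51 had 6086, 7526, 6395 and 6069.5; in both, CF control was the highest pool. The signs of the mitochondrial medians for genotype in the control pools and for treatment in CF were the same under all 3 scalings. All 7 kept elongation factor genes were higher in CF control, relative to WT control, with a median of 0.38. Eef1a1, the factor that brings aminoacyl-tRNA to the ribosome, had 45473 in CF + lubiprostone, 45109 in CF control, 41744 in WT + lubiprostone and 37365 in WT control, the order of the ribosomal proteins.

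The 32 kept initiation factor genes had a median log2 ratio of 0.16 for CF control over WT control (25 higher) and of -0.03 for lubiprostone over control in CF (12 higher). The 68 kept ribosome biogenesis genes, which make and assemble ribosomes in the nucleolus, had medians of 0.20 (55 higher) and -0.13 (23 higher) in these 2 comparisons, and of 0.14 (48 higher) in CF + lubiprostone over WT + lubiprostone. The 17 kept genes of translational control were near 0 in CF control over WT control, with 9 higher and 8 lower. Among them Eif4ebp1, the mTORC1 target that holds back cap-dependent translation, had signals of 4219.6 in CF + lubiprostone and 2189.8 in CF control, against 1334 in WT + lubiprostone and 953 in WT control, on the brightest of its 3 probe sets. Averaged over the 3, its log2 ratios were smaller, at 0.45 for CF control over WT control and 1.03 for CF over WT in the treated pools. The 12 kept reference genes outside the family had a median log2 ratio of 0.33 for CF control over WT control (10 higher), close to the 0.29 of the ribosomal proteins, and of -0.20 for treated over untreated CF (9 lower). Among them, Actb had log2 ratios of 0.05, 0.06, 0.10 and 0.09 and Gapdh had 0.39, 0.11, -0.12 and 0.16 for CF control over WT control, treated over untreated WT, treated over untreated CF, and CF over WT in the treated pools.

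**Figure D4:**
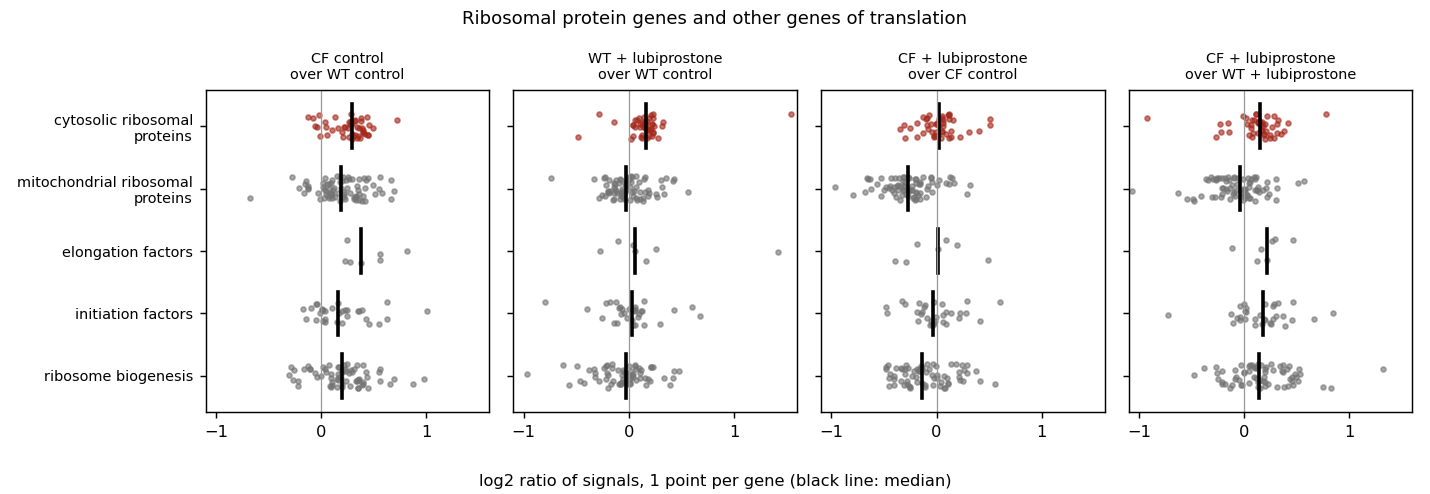
Log2 ratios of signals for the genes of 5 lists in the 4 comparisons, 1 point per gene and a black line at the median: 47 cytosolic ribosomal protein genes (red, Rps19bp1 included), 76 mitochondrial ribosomal protein genes, 7 elongation factors, 32 initiation factors and 68 ribosome biogenesis genes. In CF + lubiprostone over CF control the cytosolic set centres on 0.02 and the mitochondrial set on -0.27; with equal array medians these are -0.11 and -0.40.

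Markers of cell types also differed between the pools, and their part in the ribosomal protein ratios was not tested. The summed signal of 7 B and plasma cell markers, led by Jchain and Xbp1, was 52948 in CF + lubiprostone, 44435 in CF control, 36715 in WT + lubiprostone and 34779 in WT control, which puts the CF pools above the WT pools and WT control lowest. The sum is that of a few abundant genes: in CF control over WT control 3 of the 7 markers were higher and 4 lower, with a median log2 ratio of -0.04, and Cd79a, Cd79b and Ms4a1 of B cells were at -0.99, -0.66 and -1.30. All 7 were at or above the array median on at least 1 array. The sum of 10 crypt proliferation markers was 23281 in CF + lubiprostone, 34755 in CF control, 31179 in WT + lubiprostone and 32810.4 in WT control, an order that differs from that of the ribosomal proteins. The sum of 9 villus enterocyte markers was 268028, 237924, 323270.0 and 300010.0 in the same order of pools, lower in both CF pools. The sum of 7 T cell markers was 7224 in CF + lubiprostone, 5565 in CF control, 8026 in WT + lubiprostone and 8581 in WT control. All 6 kept T cell markers were lower in CF control, relative to WT control, with a median log2 ratio of -0.80, and so were all 9 villus markers, with a median of -0.20. Smooth muscle markers summed to 36848 in CF control, above 25748 in CF + lubiprostone, 28173 in WT + lubiprostone and 25085 in WT control.

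The size of the shift depended on how the arrays were scaled. With all arrays brought to the same median, the 143 bright probe sets had medians of 0.47 in CF control over WT control, 0.19 in WT + lubiprostone over WT control, -0.09 in CF + lubiprostone over CF control and 0.19 in CF + lubiprostone over WT + lubiprostone. After quantile normalization, which gives every array the same distribution of signals, the medians were 0.10, 0.06, 0.03 and 0.08 and 128, 110, 97 and 128 of the 143 were higher. Of the 760 other bright probe sets, 403, 379, 363 and 352 were higher under that scaling (53.0%, 49.9%, 47.8% and 46.3%). The median of the ribosomal protein probe sets was above that of the 760 other bright ones in each comparison, by 0.13, 0.08, 0.06 and 0.15 as deposited and by 0.07, 0.06, 0.04 and 0.10 after quantile normalization. Equal array medians shift both sets alike and leave the difference as deposited.

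**Figure D5:**
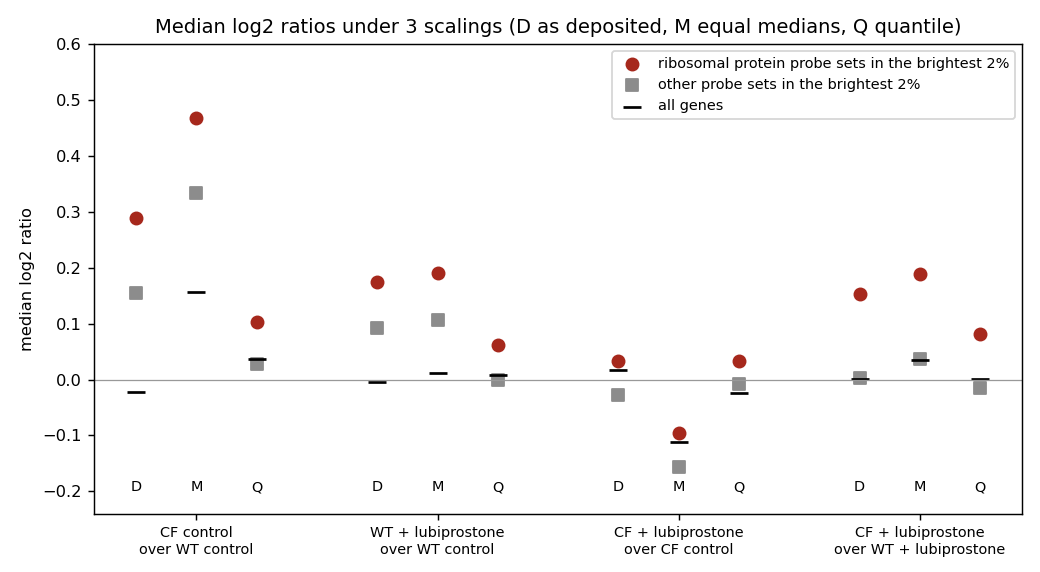
Median log2 ratio in the 4 comparisons under 3 scalings: D, signals as deposited, M, arrays scaled to the same median, and Q, quantile normalization; red circles are the 143 bright ribosomal protein probe sets, grey squares the 760 other bright probe sets, and black dashes all 12259 genes. The red circles are at 0.29, 0.47 and 0.10 in CF control over WT control and are below 0 only in CF + lubiprostone over CF control under M.

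Scaling on the family itself changed the balance of large ratios elsewhere. The median signal of the 143 bright ribosomal protein probe sets was 24119 in CF + lubiprostone, 23551 in CF control, 21644 in WT + lubiprostone and 18958 in WT control. When the arrays were scaled to make it equal, the median log2 ratio of all genes in CF control over WT control became -0.33, and 3-fold was passed by 92 genes upward and 363 downward, against 137 and 215 as deposited and 174 and 165 with equal medians. In WT + lubiprostone over WT control the counts were 40 higher and 84 lower, against 57 and 67 as deposited. In CF + lubiprostone over CF control they were 105 and 94, against 111 and 87 as deposited and 85 and 108 with equal medians.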

How the data were processed

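Signals were measured on 4 Affymetrix arrays, 1 for each pool of total RNA. The deposited values are intensities on a linear scale, which the authors extracted with GCOS (MAS5 is also named in the submitters' processing notes, without versions) and scaled to a common target. They hold no detection calls, no counts and no replicates, so the precision is limited by the number of arrays, 1 for each group, and no test was run. Symbols came from the platform annotation, updated by gene identifier. Of 45101 probe sets, 34958 carry 1 symbol, 932 several and 9211 none. Those with several were left out of counts of genes and are described as shared. To be counted in a comparison, a gene needed a signal at or above the median on 1 of its 2 arrays. Where a gene had several probe sets, their log2 ratios were averaged. "Bright" means in the highest 2% of all probe sets by mean signal.

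The named genes are members used as references, the 5 highest and 5 lowest ratios of 3 comparisons among members at or above the 75th percentile with all kept probe sets in 1 direction, the 10 brightest, stalk proteins, paralogs with their parents, ribosomal proteins outside the rule, members whose probe sets disagree, and the brightest of each list; Rps16, Rps25, Rps4x and the flat Rpl39 probe set were added with their values known. The members, the lists and the promoter letters were chosen with earlier results of these data known. Alternatives were other scalings, filters, the brightest probe set of each gene, plain probe sets, no pseudogenes and, added after seeing the data, bright probe sets alone and shared ones added. The steps were tested on simulated data. Promoter windows are from RefSeq. Python 3.11.15, numpy 2.4.6, pandas 2.3.3 and matplotlib 3.10.9 were used.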

Additional observations from a re-analysis of the deposited data

Results flagged for a closer look

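Rps27 was the member whose genotype ratio had opposite signs in the control and in the lubiprostone pools with a wide gap between them. On its only probe set with a single symbol, the log2 ratio was 0.11 for CF control over WT control and -0.93 for CF + lubiprostone over WT + lubiprostone. The difference was not tested, since each group is 1 array. The signals of this probe set were 199 in CF + lubiprostone, 139.7 in CF control, 378 in WT + lubiprostone and 129.7 in WT control. All were below the 75th percentile of their array, and the 378 of WT + lubiprostone was well above its array median of 123. The bright probe set shared with Rps27rt had log2 ratios of 0.17 and 0.13 in these comparisons.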

How the results depend on the processing

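The median log2 ratio of the 47 genes in CF control over WT control was 0.29 as deposited, 0.47 with equal array medians, 0.15 after quantile normalization and 0.058 over the 21 genes with plain probe sets; the cause of the last value was not tested. The median over all genes was -0.02 as deposited, 0.16 with equal medians and 0.04 after quantile normalization. In CF + lubiprostone over CF control, equal medians gave -0.11 with 8 of 47 genes higher, where the median of all genes was also -0.11 and 37.9% of them were higher. With plain probe sets alone, 14 of 21 genes were higher in CF control over WT control, 16 in WT + lubiprostone over WT control, 10 in CF + lubiprostone over CF control and 14 in CF + lubiprostone over WT + lubiprostone. With shared probe sets added, an alternative chosen after seeing the data, 90, 92, 59 and 83 of 99 were higher in these comparisons, since more features were counted. The share of all genes that was higher was not computed for plain probe sets alone or with shared ones added, so these counts have no background beside them. Scaling on the ribosomal proteins gave 363 genes at least 3-fold lower in CF control over WT control, against 215. With no filter, a stricter filter, the brightest probe set of each gene, bright probe sets alone or no pseudogene symbols, the median moved by less than the median SD between probe sets of a member gene (0.077 to 0.12) and the count of higher genes by less than 1.5 times in all 4 comparisons. Single genes moved more: with the brightest probe set, 4 to 7 of 47 passed that SD and up to 3 changed sign. Low signals limit the dim members, whose probe sets disagreed with bright ones of the same gene. No paired analysis was possible because each group is 1 array and the labels carry no replicate numbers.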
